A study of Mus musculus with 35 samples.

Results

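The posterior and the anterior portion of the basolateral amygdala were compared within 10 female B6D2F1N mice, a first-generation hybrid of C57BL/6 and DBA/2 mice. Members were all libraries of B6D2F1N mice that had a library of each portion under 1 mouse code, which gave 20 of the 35 libraries of the series. A further B6D2F1N mouse of the enriched group had only a posterior library in the series, and the remaining libraries were from C57BL/6J mice. The study itself lists as many anterior as posterior tissues for enriched B6D2F1N mice. Of the 10 mice, 5 had lived in standard cages and 5 in the same cages with access to a playground for 1 h per day from postnatal day 77. All of them were kept on restricted food, were trained at touchscreens from postnatal day 70 for 37 to 90 days and had performed the cognitive judgment bias test, so that no untrained mice entered. Cells were cut from stained frozen sections with a laser capture microscope, and the study gives neither their number nor a marker by which they were chosen. Portions are named as labelled. The study's methods give section ranges in which the posterior portion lies closer to bregma than the anterior one, the reverse of the anatomical order, and the direction of the labels was not tested. If they were exchanged, every sign below would be reversed.

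The basolateral amygdala is the part of the amygdala that receives cortical and thalamic input and links stimuli with threat or reward. Its main cells are glutamatergic projection neurons that resemble those of the cortex, beside a smaller number of GABAergic interneurons, and projection neurons that express Rspo2 or Ppp1r1b are known to lie at different levels of its anterior to posterior axis. Its posterior end lies next to the lateral ventricle, which is lined by ciliated ependymal cells and holds the choroid plexus, the epithelium that secretes cerebrospinal fluid.

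The anterior libraries held 17456007 to 27352623 counts on genes and the posterior libraries 17121764 to 25125524. In each of the 10 mice, more genes were detected in the posterior library, with 18580 to 23530 genes in the anterior and 21109 to 25531 in the posterior libraries. The share of reads outside annotated genes was 14.0 to 22.8% in the anterior and 17.1 to 26.4% in the posterior libraries. It was lower in the posterior library of standard mice 2 and 3, nearly equal in enriched mouse 2 and higher in the other mice. The part of these differences in the results was not tested. In standard mouse 1, which is labelled female, Xist, the RNA that silences an X chromosome in female cells, had 0 counts in both libraries, against 63.6 to 205 CPM in the libraries of the other mice. Over 4 genes of the Y chromosome (Uty, Kdm5d, Ddx3y and Eif2s3y), both libraries of this mouse had 0 counts, and no other library had more than 1. Without standard mouse 1, 878 genes passed the threshold. On the first principal component of log2 CPM, which held 21.4% of the variance, all posterior libraries had values above 0, and among the anterior libraries only those of standard mouse 3 and enriched mouse 1 did. The anterior library of enriched mouse 2 lay apart from all others, at -118.2 on the first and 95.12 on the second component, and had the fewest genes detected. Without enriched mouse 2, 990 genes passed.

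Levels are given as CPM (counts relative to library size), scaled between libraries, as mean ± SD over 10 mice, always in the order anterior and then posterior, or as the range over the 10 mice. Log2 fold changes are posterior minus anterior, so positive values belong to genes with more RNA posteriorly. Each comes with its standard error from edgeR's quasi-likelihood test with the mouse as a block, and genes with a Benjamini-Hochberg adjusted p of at most 0.05 passed the threshold. Of 27761 genes tested, 4.00% passed, and 1.62% were higher and 2.37% lower in the posterior portion. In most genes the ranges of both portions overlapped, and 53 genes, or 0.191%, had no overlap between the 10 anterior and the 10 posterior values. When mice were omitted 1 at a time, the 1110 genes that passed kept their direction, and 652 of them also passed each time. The other 458 (41.3%) did not pass without at least 1 mouse, and their adjusted p with all mice was 0.00343 or more. The median log2 fold change of all genes was 0.15, but it was -0.04 in the 9577 protein-coding genes above 10 CPM on average, of which 182 were higher and 596 lower, so that 8.12% of these well-measured genes passed. The gene lists below are read against these shares.

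Genes of the choroid plexus epithelium were higher in the posterior portion. Of 14 marker genes, 13 were higher and none lower, with a median log2 fold change of 6.46. Ttr (transthyretin, the thyroid hormone carrier of the cerebrospinal fluid) had 2.42 to 905 CPM (median 8.67) in the anterior and 335 to 13960.2 CPM (median 1764) in the posterior libraries. The groups overlapped only through the anterior library of enriched mouse 1, with 905 CPM, while the other anterior libraries had at most 39.3 CPM. Ttr was higher in the posterior portion in 10 of 10 mice (edgeR, log2 fold change 7.48 ± 0.75, adjusted p = 3.32e-05). The tight junction protein gene Cldn2 had 0.440 ± 1.39 and 15.3 ± 24.3 CPM (log2 fold change 8.20 ± 0.84, adjusted p = 3.32e-05). All anterior counts of Cldn2, 85, came from enriched mouse 1, and without that mouse the fitted log2 fold change, 10.89, stands against 0 counts and has no precise size. Calml4, a calmodulin-like gene, had 0.146 ± 0.248 and 9.68 ± 9.05 CPM without overlap (log2 fold change 6.68 ± 0.70, adjusted p = 3.77e-05). Otx2, the transcription factor that maintains choroid plexus identity, was at 0 to 1.40 CPM (median 0) and at 0.830 to 16.5 CPM (median 3.84) (log2 fold change 7.34 ± 0.85). The bicarbonate transporter gene Slc4a5, the potassium channel subunit gene Kcne2, the water channel gene Aqp1, the folate receptor gene Folr1 and the metalloreductase gene Steap1 were higher, with log2 fold changes of 6.80, 6.79, 7.52, 6.16 and 4.94. Kl, which encodes the co-receptor klotho, had 3.92 ± 4.01 and 41.6 ± 48.5 CPM (log2 fold change 3.52 ± 0.67, adjusted p = 0.00416). Sostdc1, the remaining marker, had 29.4 and 81.0 CPM and did not pass (adjusted p = 0.0649). Outside the marker list, 1500015O10Rik, which encodes the secreted peptide precursor augurin, was at 0 to 18.4 CPM (median 0.0270) and 6.74 to 255 CPM (median 31.7) (log2 fold change 6.93 ± 0.68). Lmx1a, a transcription factor gene of the roof plate from which the choroid plexus arises, had 1 count in all anterior libraries together, from enriched mouse 1, and was at 0.328 to 5.25 CPM (median 0.974) in the posterior ones, without overlap (adjusted p = 7.69e-05). Leaving out each mouse in turn, 13 or 14 of the 14 markers were higher. In a piece of tissue, a larger number of cells of a type and more RNA per cell cannot be told apart.

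**Figure D1:**
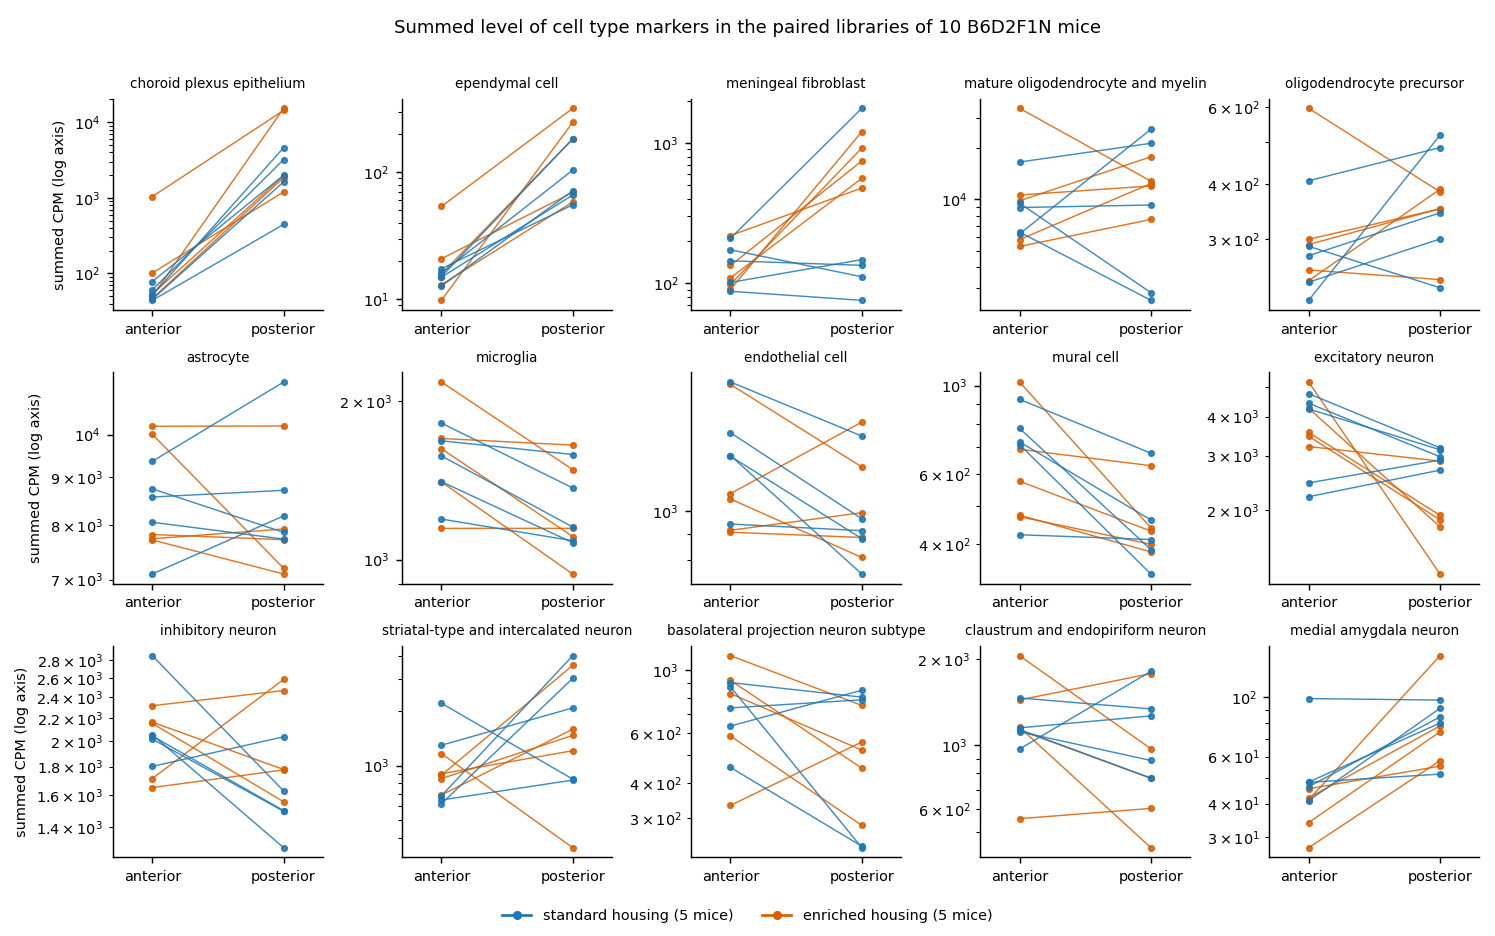
Summed CPM (log axes) of the markers of 15 cell types in the anterior and posterior library of each mouse, with 1 line per mouse, blue for 5 standard and orange for 5 enriched mice. The lines of choroid plexus and ependymal markers rise in all 10 mice, those of mural cells fall in all 10, and those of myelin, astrocytes and inhibitory neurons cross.

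Summed over the list, the choroid plexus markers reached 44.1 to 1039 CPM (median 52.6) in the anterior and 446 to 15283 CPM (median 1983) in the posterior libraries. Ttr alone had 335 to 13960.2 CPM (median 1764) in the posterior libraries. The posterior sum varied widely between mice, with the highest posterior sums in enriched mice 1 and 3. The sum of the 12 meningeal fibroblast markers was 87.9 to 219 CPM (median 122) and 75.8 to 1765 CPM (median 519) and was higher in the posterior library of 7 of 10 mice, the 5 enriched ones and 2 of the 5 standard ones. Dcn made up 1679 of the 1765 CPM in the posterior library of standard mouse 1. Without Dcn, a sum computed after the data had been seen, standard mouse 3 and enriched mice 1, 2, 3 and 5 were higher and the other 5 mice lower. In enriched mice 1 and 3 this sum went from 87.0 to 246 CPM and from 93.8 to 383 CPM. Dcn (decorin, a collagen-binding proteoglycan), one of them, had 11.4 to 47.7 CPM (median 27.6) and 8.86 to 1679 CPM (median 298) (log2 fold change 2.97 ± 0.67, adjusted p = 0.0145), while the defining collagen genes Col1a1, Col1a2 and Col3a1 had log2 fold changes of 1.08, -0.03 and 0.28 and did not pass, and the fibronectin gene Fn1 was lower (-0.91 ± 0.21).

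Most ependymal markers were also higher in the posterior portion. Of 15 ependymal markers, 12 were higher and none lower (median 3.25), and their sum did not overlap between portions, with 9.75 to 53.7 CPM (median 15.4) and 55.4 to 320.0 CPM (median 87.8). Krt18 and Nek5 in this list, like Steap1 in the choroid plexus list, are among the top genes that the study gives for this comparison. The counts and sums of both lists are therefore not independent of these data. The keratin gene Krt18 (chr15:102028180-102032027) had 0 to 1.71 CPM (median 0) in the anterior libraries, with counts only in enriched mouse 1, and 1.09 to 35.0 CPM (median 8.69) in the posterior ones (log2 fold change 8.45 ± 0.76, adjusted p = 1.51e-05). Without enriched mouse 1 the log2 fold change of Krt18, fitted against 0 anterior counts, was 10.56. The kinase gene Nek5 had 0.120 ± 0.268 and 5.32 ± 5.80 CPM (log2 fold change 6.57 ± 0.75, adjusted p = 5.42e-05), Tmem212 1.31 ± 3.75 and 26.9 ± 25.6 CPM (log2 fold change 6.62 ± 0.77, adjusted p = 5.67e-05) and Ccdc153 0.778 ± 2.00 and 12.2 ± 8.58 CPM (log2 fold change 6.22 ± 0.73, adjusted p = 6.58e-05). Foxj1, the master regulator of motile cilia, was low, at 0 to 2.59 CPM (median 0.183) and 0.111 to 6.51 CPM (median 1.66), and did not pass (log2 fold change 2.84 ± 1.05, adjusted p = 0.168), and neither did Mia and Meig1. Among 14 tested regulators of multiciliated cells, Rfx3, a factor that binds the X-box of ciliary genes, was higher (31.4 ± 7.01 and 50.8 ± 14.6 CPM, log2 fold change 0.67 ± 0.16), as was Trp73 (log2 fold change 4.59 ± 1.24).

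Motile cilia beat through dynein arms that slide the microtubule doublets of the axoneme. Of 35 genes for axonemal dyneins and their assembly and docking factors, 12 were higher, and of 53 cilia and flagella associated genes, 18 were higher, with no gene lower in either list (medians 1.42 and 1.62). The dynein heavy chain genes Dnah12, Dnah5 and Dnah11 were higher by 6.04 ± 0.88, 2.79 ± 0.55 and 5.69 ± 1.14 on the log2 scale, and Zmynd10, which is needed to assemble dynein arms, by 3.10 ± 0.61. Among cilia-associated genes, Spag8 was at 1.87 to 5.42 CPM (median 2.99) and 7.60 to 29.3 CPM (median 19.9) without overlap (log2 fold change 2.62 ± 0.27, adjusted p = 3.32e-05). Cfap44, a gene of the tether of inner dynein arms, had 3.38 ± 1.34 and 22.1 ± 14.8 CPM without overlap (log2 fold change 2.51 ± 0.37, adjusted p = 0.000599), and Hydin, a gene of the central pair apparatus, had 1.15 ± 1.19 and 7.35 ± 5.44 CPM (log2 fold change 3.21 ± 0.54). The ciliary kinesin gene Kif27 had 0.351 ± 0.445 and 3.79 ± 1.43 CPM, again without overlap (log2 fold change 4.34 ± 0.77, adjusted p = 0.00262). With enriched mice 1 and 3 and standard mouse 3 left out together, 7 ependymal, 6 axonemal and 10 cilia-associated genes were higher. In the standard mice alone these counts were 6, 3 and 6, and in the enriched mice alone 8, 6 and 10. Over all genes, 83 and 193 were higher in these 2 fits.

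The promoters of these genes were inspected for the core of the motif of RFX factors, GTTGCC on either strand, in windows of 300 bases (250 before to 50 after the start, RefSeq, build GRCm38.p6). Of the 88 axonemal and cilia-associated genes, 71 had a window, and 29 of these (40.8%) held the motif, as did 11 of the 27 called ones (40.7%), against 14.1% of all 27025 genes with a window. To show where the match lies, a stretch around the match nearest to the start is given for 4 called genes, with each match in capitals, which reads GGCAAC on the strand of the gene in each:
Cfap44: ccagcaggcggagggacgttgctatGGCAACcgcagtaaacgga
Cfap46: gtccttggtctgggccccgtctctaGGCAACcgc
Cfap161: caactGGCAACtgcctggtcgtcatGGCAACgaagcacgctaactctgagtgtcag
Hydin: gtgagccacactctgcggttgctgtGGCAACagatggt
They lie at chr16:44394755-44394798, plus strand, chr7:139683816-139683849, minus strand, chr7:83794848-83794903, minus strand and chr8:110266939-110266976, plus strand. A match is a run of letters and not a shown binding site, and the spelling of the motifs searched here was chosen after several had been tried.

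None of 22 myelin and oligodendrocyte genes and none of 11 precursor genes passed the threshold. Mbp (myelin basic protein) had 742 to 12392 CPM (median 1692) and 355 to 7598 CPM (median 3347), a range over mice in each portion that was wider than the difference between them (log2 fold change 0.29 ± 0.42). Among 17 astrocyte markers, Agt (angiotensinogen) was at 16.6 to 172 CPM (median 44.6) and 98.0 to 364 CPM (median 238) and higher in 10 of 10 mice (log2 fold change 2.41 ± 0.30, adjusted p = 0.000118). Gfap and Sox9 were higher as well (log2 fold changes 1.93 ± 0.40 and 0.49 ± 0.14). The glutamate transporter gene Slc1a2 was lower (2412 ± 601 and 1525 ± 389 CPM, log2 fold change -0.66 ± 0.14), and the other 13 astrocyte markers did not pass. Their list summed to 7097 to 10207 CPM (median 8318) and 7096 to 11382 CPM (median 7894), with a higher posterior sum in 5 of 10 mice. Of 19 microglial markers, Trem2 and Aif1 were lower (-0.63 ± 0.13 and -0.90 ± 0.22). None of the 19 had a log2 fold change above 0, and their sum, 1146 to 2176 CPM (median 1599) and 939 to 1651 CPM (median 1149.7), was lower in the posterior library of 9 of 10 mice. The sum of the endothelial markers, 909 to 1805 CPM (median 1185) and 751 to 1503 CPM (median 941), was lower in 8 of 10 mice. Among mural cell markers, Vtn and Rgs5 were lower, and the summed mural markers were lower in the posterior library of all 10 mice, with 423 to 1021 CPM (median 702) and 337 to 677 CPM (median 422). The transporter gene Abcb1a was the only one of 12 endothelial markers to pass, at -0.67.

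Genes of excitatory neurons moved in both directions. The vesicular glutamate transporter gene of cortex-like neurons, Slc17a7, had 171 to 902 CPM (median 479) in the anterior and 74.2 to 293 CPM (median 198) in the posterior libraries and was lower in 9 of 10 mice (log2 fold change -1.32 ± 0.24, adjusted p = 0.00334). The one typical of thalamic, hypothalamic and medial amygdala neurons, Slc17a6, had 44.0 to 210.5 CPM (median 73.7) and 69.0 to 351 CPM (median 214) and was higher in 9 of 10 mice (log2 fold change 1.38 ± 0.25, adjusted p = 0.00265). In standard mouse 4, the exception, Slc17a6 had 87.1 and 69.0 CPM. Tbr1, a transcription factor gene of pallial projection neurons, had 17.3 to 47.6 CPM (median 33.5) and 1.84 to 21.8 CPM (median 6.41) and was lower in all mice (log2 fold change -2.38 ± 0.33, adjusted p = 0.00029). Neurod6, Nrn1 and Nptx1 were lower and Neurod1 was higher (log2 fold changes -1.70 ± 0.42, -0.71 ± 0.18, -0.73 ± 0.20 and 1.96 ± 0.45), and Camk2a, Neurod2 and Slc17a8 were among those that did not pass. In all, 5 of 11 excitatory markers were lower and 2 higher. The lower count rests on several mice, as it was 2 without standard mouse 4, enriched mouse 1 or enriched mouse 4, and 3 without standard mouse 1, standard mouse 2, enriched mouse 2 or enriched mouse 3.

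Of 7 markers of basolateral projection neuron subtypes, 2 were lower and the others did not pass. Rspo2, which encodes a secreted activator of Wnt signalling (chr15:43020794-43170826), had 33.8 to 315 CPM (median 194) and 0.0424 to 32.2 CPM (median 14.7) without overlap (log2 fold change -3.63 ± 0.56, adjusted p = 0.000839). Cyp26b1, the gene of a retinoic acid degrading enzyme, had 11.2 to 122 CPM (median 69.4) and 0.0971 to 28.3 CPM (median 2.32) and was lower in 10 of 10 mice (log2 fold change -4.54 ± 0.69, adjusted p = 0.000718). Ppp1r1b, the marker of the other large class, had 8.03 to 59.5 CPM (median 30.1) and 14.6 to 148 CPM (median 25.9), with overlapping ranges (log2 fold change 0.33 ± 0.35, adjusted p = 0.708). In standard mice 4 and 5 alone, it was above the highest anterior value, with 148 and 102.5 CPM in the posterior library. Ppp1r1b is also a marker of striatal neurons, and Adora2a, the adenosine receptor gene of striatal neurons, had 469 and 222 CPM in the same libraries, against at most 57.5 CPM in the other posterior ones. The part of striatal-type cells in the Ppp1r1b values was not tested. Lypd1, Etv1, Lmo3 and Fezf2 had log2 fold changes of 0.47, -0.56, -0.46 and 0.13 and did not pass.

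Markers of inhibitory and neighbouring neurons are given next. The GABA synthesis genes Gad1 and Gad2 had 272 and 233.6 CPM and 120.0 and 101 CPM and did not pass (adjusted p = 0.592 and 0.695). Of 20 interneuron markers, 4 passed. Npy, Ndnf and Vip were lower (-1.33 ± 0.24, -2.33 ± 0.45 and -0.87 ± 0.24) and the calcium buffer gene Calb2 was higher. Calb2 had 7.96 to 125 CPM (median 25.0) and 12.6 to 164 CPM (median 102) (log2 fold change 1.71 ± 0.45, adjusted p = 0.0365), and it was higher in all 5 enriched mice and in standard mice 1 and 2, but lower in standard mice 3, 4 and 5. No gene of 18 striatal or intercalated neuron markers passed. Their sum was 617 to 2200.0 CPM (median 867) and 354 to 4015 CPM (median 1525) and was higher in the posterior library of 8 of 10 mice. The sum of the 8 medial amygdala markers was 27.3 to 99.0 CPM (median 43.7) and 51.6 to 143 CPM (median 79.2) and was higher in the posterior library of 9 of 10 mice. Of these markers, the peptidase gene Ecel1 was higher (9.31 ± 9.42 and 21.0 ± 7.62 CPM, log2 fold change 1.51 ± 0.35). Oprk1, a claustrum and endopiriform marker and the gene of the kappa opioid receptor, was lower and is described with the peptide receptors.

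Most transcription factor genes in the lists did not pass, and those that passed went in both directions. Of 93 tested homeobox and LIM domain genes, 6 were higher, 3 were lower and 84 did not pass. This share of calls, 9.677%, stood beside 8.12% of well-measured genes and 4.00% of all genes. Of 42 basic helix-loop-helix genes, 39 did not pass, and of 49 forkhead and Sox genes, 46 did not. Of 61 T-box, Ets, Zic, Egr and Klf genes, 54 did not pass. Lmo4, a LIM-only cofactor gene, had 173 to 453 CPM (median 326) and 73.6 to 179.6 CPM (median 129) and was lower in all mice (log2 fold change -1.43 ± 0.15, adjusted p = 3.32e-05). Satb1, a chromatin organizer gene of cortical neurons, and Sox5 were lower as well, with 109 ± 41.4 and 29.4 ± 17.5 CPM (log2 fold change -2.06 ± 0.32, adjusted p = 0.000848) and 119.9 ± 26.8 and 50.1 ± 24.4 CPM (log2 fold change -1.37 ± 0.18, adjusted p = 0.000242). Olig3, a basic helix-loop-helix gene that marks dorsal progenitors and thalamic territory in development, had no counts in any anterior library and 0.0424 to 26.2 CPM (median 1.89) in the posterior ones. It passed the threshold (adjusted p = 0.000718), but the posterior library of 1 mouse held 1 count, and enriched mouse 2 and standard mouse 1, with 26.2 and 16.4 CPM, stood above the other mice. Tcf7l2, a nuclear effector of Wnt signalling that is strong in thalamic neurons, had 38.8 ± 8.84 and 124 ± 90.4 CPM (log2 fold change 1.31 ± 0.25, adjusted p = 0.00499). The forkhead gene Foxo1, the paired-box gene Pax6 and the roof plate gene Msx1 were higher (1.302 ± 0.23, 0.98 ± 0.27 and 2.39 ± 0.52). None of 43 nuclear hormone receptor genes passed.

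Of 87 tested genes for the release of synaptic vesicles, 18 were lower and 4 higher in the posterior portion, and the other 65 did not pass (median -0.14). Within 1 housing, 3 were lower in the standard and 13 in the enriched mice, beside 115 and 328 over all genes. Syt1, the calcium sensor of fast release, had 2577 to 7332 CPM (median 4827) and 1348 to 3314 CPM (median 2375) and was lower in 10 of 10 mice (log2 fold change -1.0 ± 0.16, adjusted p = 0.00109). The membrane fusion gene Snap25 had 3210.3 ± 567 and 1848 ± 767 CPM (log2 fold change -0.87 ± 0.16, adjusted p = 0.00415), and Rph3a, an effector of vesicle-bound Rab proteins, 235 ± 50.03 and 86.4 ± 58.6 CPM (log2 fold change -1.75 ± 0.24, adjusted p = 0.000345). The giant scaffold genes of the active zone, Pclo and Bsn, were lower (log2 fold changes -0.83 ± 0.13 and -1.18 ± 0.20), as were the vesicle coat genes Syn2 and Syn1 (-0.95 ± 0.15 and -1.10 ± 0.23). Other members went the opposite way, with the priming factor gene Unc13c at 32.8 ± 27.9 and 64.3 ± 27.2 CPM (log2 fold change 1.15 ± 0.20, adjusted p = 0.00203) and the synaptotagmin gene Syt10 at 14.1 ± 11.7 and 37.8 ± 15.0 CPM (log2 fold change 1.74 ± 0.32, adjusted p = 0.00335). Doc2b and Vamp8 were also higher. The sum of the 11 excitatory neuron markers was 2213 to 5169.9 CPM (median 3898) in the anterior and 1248 to 3178 CPM (median 2786) in the posterior libraries. It was lower posteriorly in 8 of 10 mice. Camk2a, which did not pass, made up most of this sum, such as 2950 of 4237 and 2669 of 3132 CPM in standard mouse 4. The part of this sum in the results on neuronal genes was not tested.

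On the receiving side, all called glutamate and GABA receptor genes were lower. These were 3 of 18 ionotropic subunits (Grin2a -0.90 ± 0.21, Gria3 -0.73 ± 0.17, Gria4 -0.48 ± 0.13), 5 of 21 auxiliary subunits, led by Olfm1 (925 ± 348 and 403 ± 113 CPM, log2 fold change -1.14 ± 0.16, adjusted p = 0.000486) and Sorcs1 (-1.33 ± 0.20), and 4 of 10 metabotropic receptor and Homer genes. Grm3, a receptor gene that lowers cyclic AMP, had 103.1 to 201 CPM (median 135) and 50.1 to 94.6 CPM (median 64.0) without overlap (log2 fold change -1.09 ± 0.13, adjusted p = 5.67e-05), and its close relative Grm2 had 47.9 ± 18.7 and 12.9 ± 6.82 CPM (log2 fold change -1.93 ± 0.30, adjusted p = 0.000806). Of 26 GABA and glycine receptor genes, 5 were lower, led by Gabra3 (816 ± 416 and 384 ± 203 CPM, log2 fold change -1.10 ± 0.19, adjusted p = 0.00238). Of 25 scaffold genes of the postsynaptic density, Cnksr2, Dlgap1, Arc and Iqsec3 were lower. Of synapse organizers, most did not pass, with 10 lower and 3 higher of 72. The calsyntenin genes Clstn1 and Clstn2 were lower (-0.90 ± 0.15 and -0.97 ± 0.18), while the netrin-related gene Ntng1 and the teneurin gene Tenm2 were higher (1.57 ± 0.31 and 0.92 ± 0.24).

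**Figure D2:**
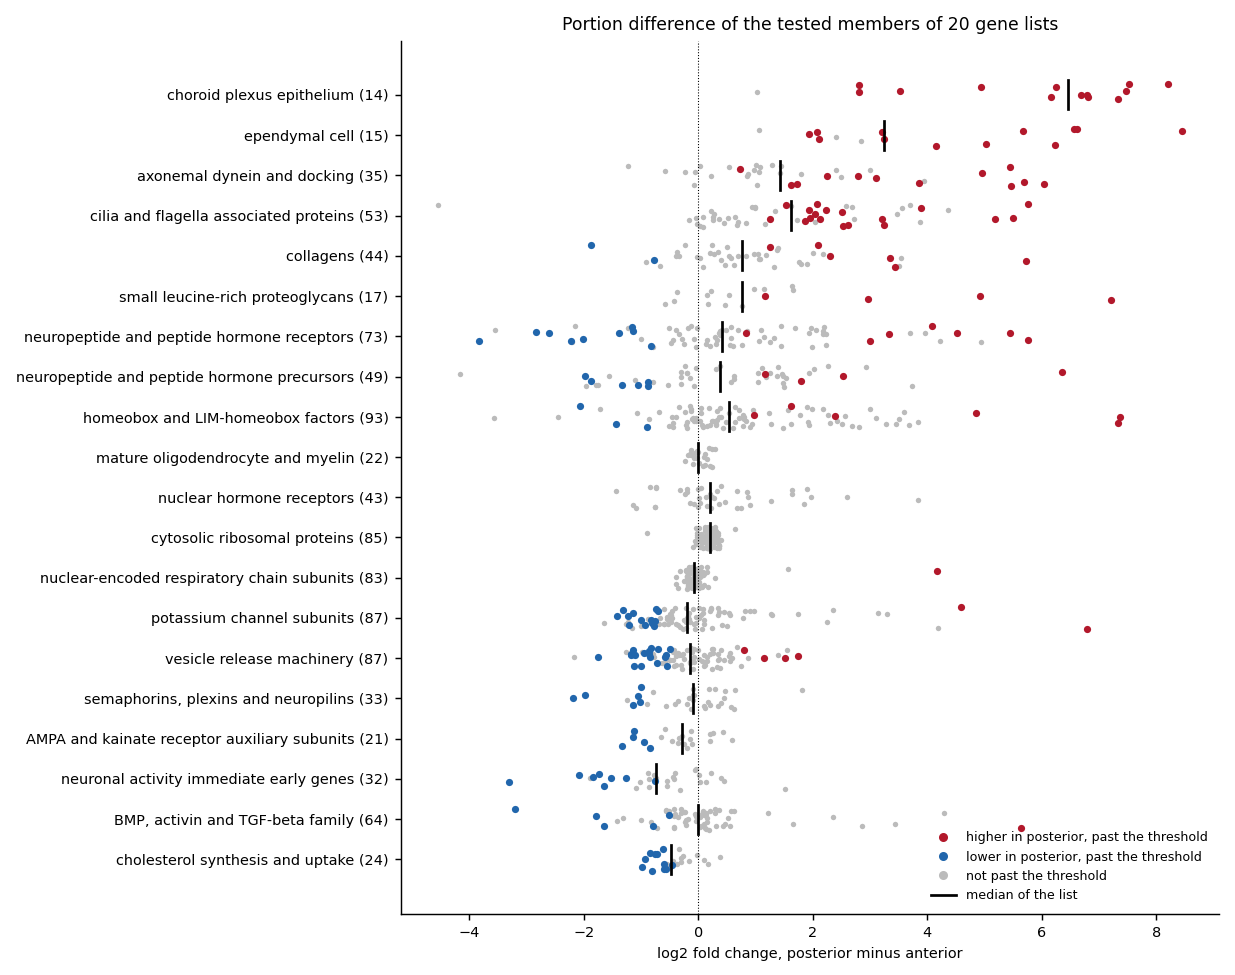
Log2 fold change (posterior minus anterior, horizontal axis) of every tested member of 20 gene lists, with the number tested in brackets, members past the threshold in red (higher) or blue (lower) and the list's median as a black bar. Choroid plexus, ependymal and ciliary lists have their medians to the right of 0, most called vesicle release genes and all called activity-dependent and cholesterol genes are blue, and ribosomal and myelin genes hold none that passed.

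Most called ion channel genes were lower, as were most called protein-coding genes above 10 CPM (596 lower and 182 higher). Of 87 potassium channel subunit genes, 13 were lower and 2 higher, and the latter were Kcne2 and Kcnj13, which are known from the choroid plexus. Within 1 housing, 2 were lower in the standard and 8 in the enriched mice, beside 115 and 328 over all genes. The modifier subunit gene Kcnv1 had 64.3 to 320.0 CPM (median 250.3) and 35.8 to 133 CPM (median 74.8) (log2 fold change -1.42 ± 0.18, adjusted p = 0.000168). Kcnma1, which encodes the large-conductance calcium-activated channel, and Kcnq5 and Kcnq3, which encode subunits of the M-current, were lower (log2 fold changes -1.001 ± 0.16, -1.23 ± 0.23 and -0.81 ± 0.18). Of 21 sodium channel and pacemaker channel genes, 5 were lower and 1 higher. Scn2a and Scn8a, the main sodium channel genes of excitatory axons, had 932 ± 267 and 557 ± 143 CPM (log2 fold change -0.73 ± 0.14, adjusted p = 0.00415) and 256 ± 73.5 and 154 ± 46.7 CPM (log2 fold change -0.74 ± 0.16, adjusted p = 0.00984), and both were lower. Scn9a was higher, with 6.67 ± 6.64 and 25.0 ± 14.4 CPM (log2 fold change 2.104 ± 0.35, adjusted p = 0.00157). Cacna1e, Cacna1i, Cacna2d1 and Cacng6 were lower among 20 calcium channel genes. The calcium sensor gene Ncald was lower (637 ± 109 and 269 ± 129 CPM, log2 fold change -1.39 ± 0.19, adjusted p = 0.0003), whereas Necab2, the gene of a calcium-binding protein that interacts with receptors, had 8.94 to 20.8 CPM (median 15.3) and 21.9 to 50.6 CPM (median 33.3) and was higher without overlap (log2 fold change 1.17 ± 0.16, adjusted p = 0.000279).

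Peptide signalling genes passed in both directions. Of 49 precursor genes, 4 were higher and 6 lower. Of 73 receptor genes (with the binding protein Crhbp and receptor-modifying subunits), 7 were higher and 9 lower. The shares called, 20.4% and 21.9%, stood beside 4.00% of all genes and 8.12% of protein-coding genes above 10 CPM. Chgb (chromogranin B, a protein of dense-core vesicles, chr2:132781278-132795079) had 1094 to 5075 CPM (median 2725) and 225 to 1067 CPM (median 738) without overlap (log2 fold change -1.98 ± 0.21, adjusted p = 4.06e-05). Chga and Vgf, also of dense-core vesicles, and the peptide genes Npy, Cck and Vip were lower (-0.87 ± 0.18, -1.05 ± 0.20, -1.33 ± 0.24, -1.87 ± 0.45 and -0.87 ± 0.24). Ucn3, which encodes urocortin 3, a ligand of the second receptor of corticotropin-releasing hormone, was at 0 to 0.569 CPM (median 0) and 0 to 41.6 CPM (median 6.88), above 0 in 8 posterior libraries (log2 fold change 6.35 ± 1.00, adjusted p = 0.00144). Grp (gastrin-releasing peptide), Cartpt and Tac1 (the substance P precursor) were higher, at 20.3 ± 16.0 and 73.8 ± 51.2 CPM, 23.3 ± 62.1 and 36.8 ± 27.2 CPM and 26.2 ± 28.1 and 53.5 ± 30.9 CPM. Without enriched mouse 4, 2 precursor genes were higher. The anterior mean of Cartpt rests on standard mouse 3 with 199.8 CPM, since the other anterior libraries had at most 8.19 CPM.

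Among the receptors, Npsr1, the receptor gene of neuropeptide S, had 16.5 to 270.1 CPM (median 92.7) and 1.41 to 21.0 CPM (median 7.05) and was lower in all mice (log2 fold change -3.84 ± 0.39, adjusted p = 3.32e-05). Sstr2, a somatostatin receptor gene, had 57.4 to 396 CPM (median 235) and 32.5 to 150.0 CPM (median 38.2) (log2 fold change -2.02 ± 0.23, adjusted p = 5.67e-05), and Sstr3 was lower too (-2.22 ± 0.38). The kappa opioid receptor gene Oprk1 was at 28.0 to 309.5 CPM (median 137) and 1.44 to 52.7 CPM (median 24.0) and lower in 9 of 10 mice (log2 fold change -2.83 ± 0.55, adjusted p = 0.005). Trhr, the receptor gene of thyrotropin-releasing hormone, was higher in all mice, with 2.33 to 15.9 CPM (median 8.33) and 14.4 to 147 CPM (median 59.4) (log2 fold change 3.01 ± 0.34, adjusted p = 4.65e-05), and its groups overlapped only through the posterior library of standard mouse 2 with 14.4 CPM. Rxfp3, the relaxin 3 receptor gene, had 1.31 to 8.42 CPM (median 2.68) and 7.42 to 86.2 CPM (median 31.3) (log2 fold change 3.33 ± 0.42, adjusted p = 0.000145), while the relaxin receptor gene Rxfp1 was lower (-2.60 ± 0.43). Other receptors that were higher, Sstr5, Galr1, Npr3, Npy2r and Calcr, were low in the anterior portion except Npy2r (52.0 and 91.8 CPM). Npy2r was higher and Npy5r lower (0.84 ± 0.21 and -0.82 ± 0.21).

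**Figure D3:**
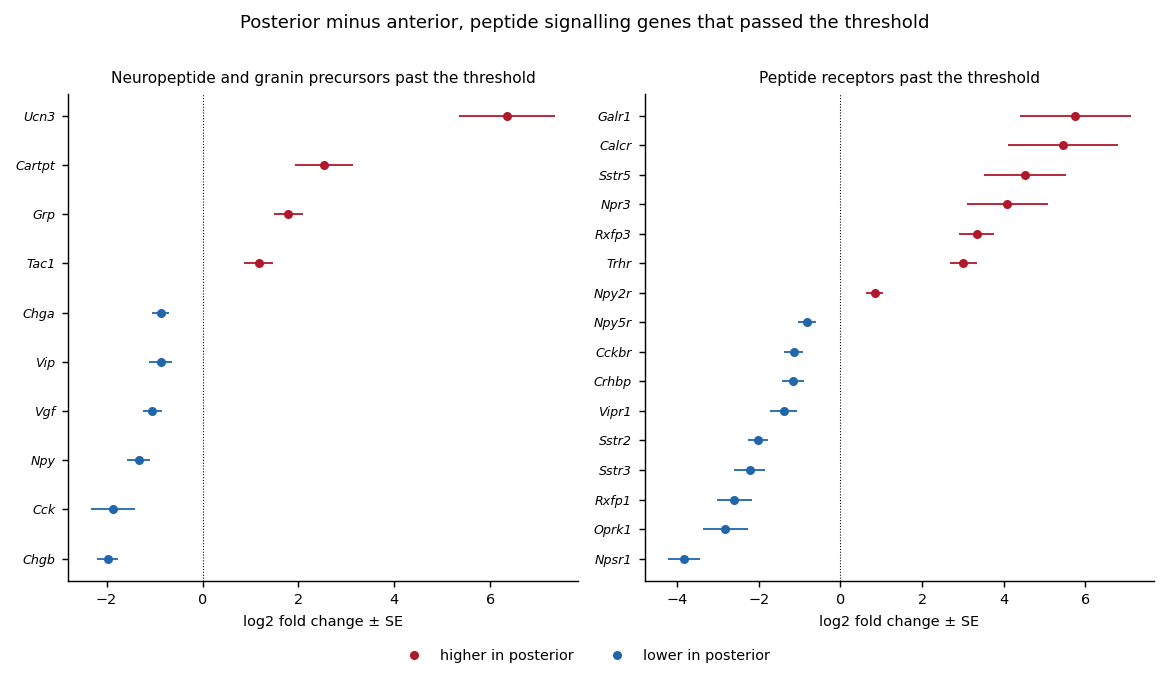
Log2 fold change ± SE (posterior minus anterior, horizontal axis) of the neuropeptide and granin precursor genes (left) and peptide receptor genes (right) past the threshold, in red where higher and in blue where lower. Chgb and Npsr1 are the members with the smallest adjusted p of their lists, and genes that are nearly absent from the anterior portion (Ucn3, Galr1, Calcr) have the widest bars.

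Receptors of serotonin, acetylcholine and other small transmitters were examined as well. The serotonin receptor gene Htr2a had 14.6 to 35.8 CPM (median 17.7) and 3.30 to 10.3 CPM (median 5.99) without overlap (log2 fold change -1.74 ± 0.27, adjusted p = 0.000839), and no other of 14 serotonin receptor genes passed. The muscarinic receptor genes Chrm2 and Chrm1 were lower (57.02 ± 33.0 and 14.8 ± 4.74 CPM, log2 fold change -1.80 ± 0.23, adjusted p = 0.00013, and -0.69 ± 0.17), as were the cannabinoid receptor gene Cnr1 (-1.26 ± 0.27) and the adenosine receptor gene Adora1 (-0.88 ± 0.24). The histamine receptor gene Hrh1 was higher (1.21 ± 0.29). None of 14 dopamine and adrenergic receptor genes passed. Downstream, the regulatory subunit gene of protein kinase A Prkar1b had 245 to 399.9 CPM (median 327) and 126 to 228 CPM (median 185) without overlap (log2 fold change -0.83 ± 0.11, adjusted p = 0.00029). The adenylyl cyclase genes Adcy2 and Adcy1 were lower (-1.06 ± 0.14 and -1.42 ± 0.27) and Adcy8 was higher (1.12 ± 0.23). The orphan receptor gene Gpr101 was higher in 9 of 10 mice (11.3 ± 16.7 and 64.1 ± 36.5 CPM, log2 fold change 3.50 ± 0.47, adjusted p = 0.00027).

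Genes that respond to neuronal activity were lower in the posterior portion where they passed. Of 32 such genes, 8 were lower and none higher (median -0.74). Within 1 housing, 2 were lower in the standard and 7 in the enriched mice, beside 115 and 328 over all genes. Nptx2, which encodes a pentraxin that clusters AMPA receptors, had 16.1 to 91.9 CPM (median 60.2) and 1.84 to 14.4 CPM (median 4.49) without overlap (log2 fold change -3.31 ± 0.37, adjusted p = 4.65e-05). Bdnf (brain-derived neurotrophic factor) had 84.3 to 438 CPM (median 297) and 27.4 to 102 CPM (median 50.5) and was lower in all mice (log2 fold change -2.08 ± 0.26, adjusted p = 0.000138). Inhba, Ptgs2, Ier5 and the transcription factor gene Egr1 were lower (log2 fold changes -1.64 ± 0.29, -1.85 ± 0.35, -1.53 ± 0.33 and -1.26 ± 0.24), as were Homer1 and Arc (-0.75 ± 0.17 and -1.73 ± 0.44). Arc was lower in 7 of 10 mice and higher in standard mice 2 and 3 and enriched mouse 5. The classical early genes Fos, Fosb, Junb, Npas4 and Nr4a1 did not pass. Fos had 2.12 to 31.9 CPM (median 13.2) and 1.25 to 25.6 CPM (median 8.40) (log2 fold change -0.86 ± 0.39, adjusted p = 0.286). Of the 25 activity genes with a promoter window, 13 held TGACGT, the core of the cyclic AMP response element, against 8.37% of all genes, and 3 of the 5 called ones did. The stretch of Bdnf with the match in capitals, at chr2:109692375-109692430, plus strand, is shown as that of the best known target of this element:
Bdnf: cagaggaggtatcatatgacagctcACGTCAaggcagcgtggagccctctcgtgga

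Cholesterol synthesis was the metabolic group with the largest share of calls among those examined. Neurons and glia make their own cholesterol, and the enzymes of the pathway are transcribed together under the factor SREBP2. Of 24 genes, 11 were lower in the posterior portion and none higher (45.8%, median -0.47). Hmgcs1, an enzyme gene of the first steps (chr13:119690379-119708260), had 211 to 303 CPM (median 251) and 116 to 207 CPM (median 140.2) without overlap (log2 fold change -0.75 ± 0.12, adjusted p = 0.00144). Sqle and Cyp51, of the middle of the pathway, had 313 ± 104 and 172 ± 32.7 CPM (log2 fold change -0.81 ± 0.13, adjusted p = 0.00157) and 206 ± 49.3 and 150.1 ± 36.7 CPM (log2 fold change -0.45 ± 0.12, adjusted p = 0.0357). Among enzymes of the last steps, Msmo1, Ebp and Sc5d were lower (log2 fold changes -0.72 ± 0.17, -0.60 ± 0.15 and -0.59 ± 0.12). Srebf2, which encodes SREBP2, and Insig1, its sterol-dependent brake, were lower too (-0.61 ± 0.17 and -0.93 ± 0.17). The other 13 genes did not pass, among them the enzyme genes Lss, Mvk, Pmvk, Mvd, Idi1 and Fdps. The log2 fold changes of the genes named here that passed lay between -0.93 and -0.45. With 1 mouse left out, 6 to 11 genes were lower, with 6 without standard mouse 4 or enriched mouse 4 and 7 without standard mouse 2, and within 1 housing 2 were lower in the standard and 1 in the enriched mice.

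**Figure D4:**
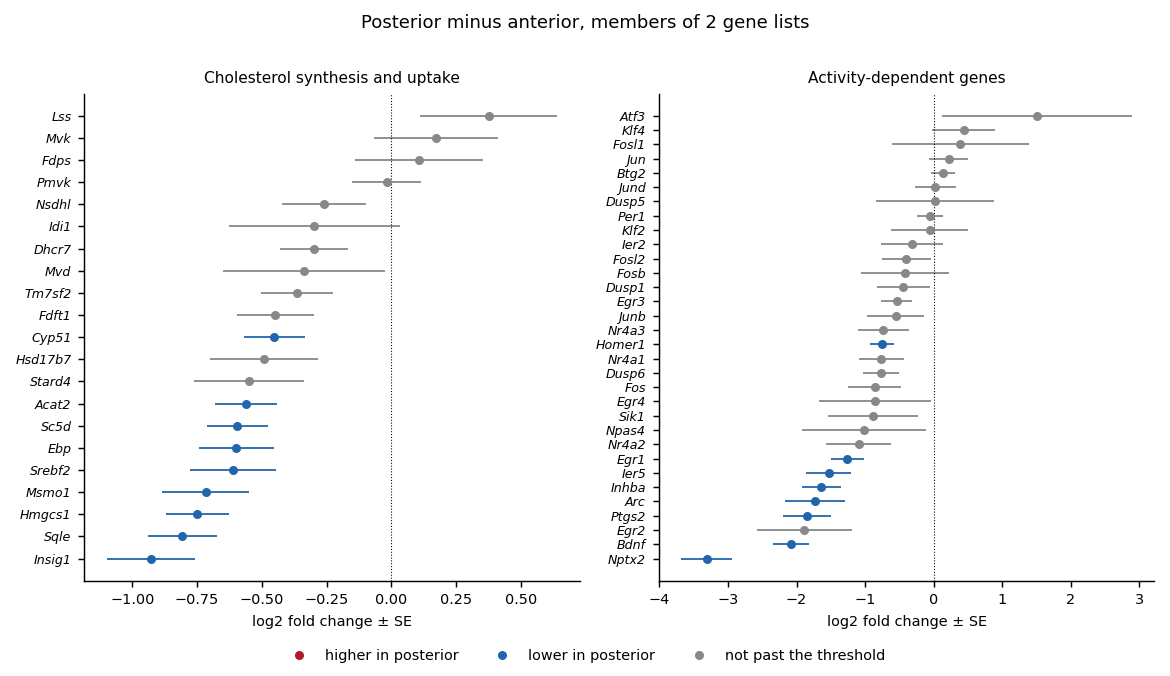
Log2 fold change ± SE (posterior minus anterior, horizontal axis) of 21 of the 24 genes of cholesterol synthesis and uptake (left) and of the 32 activity-dependent genes (right), in blue where lower, red where higher and grey where the threshold was not passed. On the left 9 genes are blue and 12 grey, and the 3 genes not drawn, 2 of them lower, are counted in the text only. On the right 8 are blue and 24 grey.

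Of the 24 cholesterol genes, 17 had a promoter window, and 16 of these (94.1%) held CCAAT on either strand, the box bound by NF-Y, against 41.1% of all genes. TCACNCCAC, a spelling of the sterol regulatory element, was in 1 of the 17, Hmgcs1, and in 1.44% of all genes. The element of Hmgcs1 and CCAAT boxes of 4 called genes are shown, with the element in capitals in the first line and CCAAT or its reverse complement ATTGG in the others:
Hmgcs1: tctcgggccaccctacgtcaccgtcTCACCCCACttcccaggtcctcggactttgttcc
Hmgcs1: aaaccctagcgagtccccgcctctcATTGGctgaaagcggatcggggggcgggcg
Insig1: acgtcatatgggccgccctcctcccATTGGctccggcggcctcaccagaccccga
Sc5d: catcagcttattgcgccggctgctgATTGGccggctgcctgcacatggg
Msmo1: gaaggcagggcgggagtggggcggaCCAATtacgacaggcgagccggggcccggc
They lie at chr13:119690189-119690247, plus strand and chr13:119690281-119690335, plus strand for Hmgcs1, chr5:28071171-28071225, plus strand for Insig1, chr9:42264301-42264349, minus strand for Sc5d and chr8:64733604-64733658, minus strand for Msmo1.

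Most genes of axon guidance and adhesion did not pass. All 6 called of 33 semaphorin, plexin and neuropilin genes were lower, among them the secreted repellents Sema3a (121 ± 58.2 and 34.7 ± 27.8 CPM, log2 fold change -1.98 ± 0.24, adjusted p = 0.000109) and Sema3e (155 ± 89.6 and 34.3 ± 19.6 CPM, log2 fold change -2.19 ± 0.27, adjusted p = 0.00013). Of 22 ephrin and Eph receptor genes, 19 did not pass. The receptor genes Epha7 and Epha5 were lower (731 ± 326 and 204 ± 87.7 CPM, log2 fold change -1.82 ± 0.22, adjusted p = 0.00011, and -1.19 ± 0.16). The ligand gene Efnb3 was higher (48.1 ± 8.60 and 122 ± 49.96 CPM, log2 fold change 1.25 ± 0.16, adjusted p = 0.000137). The growth inhibitor gene Rtn4, which encodes Nogo, had 1118 to 2818 CPM (median 2067) and 392 to 1125 CPM (median 751) and was lower in all mice (log2 fold change -1.36 ± 0.15, adjusted p = 4.65e-05). Its receptor gene Rtn4r and the co-receptor gene Lingo1 were lower as well (-1.36 ± 0.24 and -1.10 ± 0.20), as was Robo2 (-1.21 ± 0.18). Of 22 classical cadherins, Cdh9, Cdh11, Cdh8 and Cdh10 were lower, Cdh13, Cdh3 and Cdh26 were higher and 15 did not pass. Cdh9 had 255 ± 144 and 61.8 ± 33.7 CPM (log2 fold change -1.99 ± 0.25, adjusted p = 0.00013) and Cdh13 158 ± 117 and 429 ± 214 CPM (log2 fold change 1.58 ± 0.35, adjusted p = 0.0117). Among protocadherins, 5 of 20 non-clustered and related genes were lower, led by Fat3 and Pcdh7 (-1.17 ± 0.14 and -0.91 ± 0.14), while of 54 clustered ones 1 passed, Pcdhb1, which was higher (0.0292 and 1.21 CPM) and belongs to a cluster of similar genes.

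A secreted factor, Bmp3, had the smallest adjusted p of all genes. Bmp3, a member of the bone morphogenetic proteins that antagonizes others of its family (chr5:98854415-98884396), had 182 to 1415 CPM (median 657) in the anterior and 27.7 to 179 CPM (median 58.9) in the posterior libraries without overlap (log2 fold change -3.19 ± 0.24, adjusted p = 1.47e-06). Standard mouse 3 and enriched mouse 1 had the lowest anterior values, 185 and 182 CPM, and standard mouse 5 the highest posterior one. Bmp2 and the receptor gene Bmpr2 were lower as well (-1.78 ± 0.40 and -0.51 ± 0.11). In all, 5 of 64 genes of the family were lower and 1, Bmp15, higher at a mean under 1 CPM. Its posterior values were 0 to 3.60 CPM, with 0 in standard mouse 2 and enriched mice 1, 3 and 4. Vegfd, a growth factor gene of lymphatic vessels, had 14.8 to 162 CPM (median 56) and 1.61 to 10.8 CPM (median 3.93) without overlap (log2 fold change -3.63 ± 0.39, adjusted p = 4.06e-05). Of 59 Wnt pathway genes, Dkk3, Dkkl1 and Rspo2 were lower and Tcf7l2 higher, and Dkk3 had 1270.2 ± 606 and 339 ± 142 CPM (log2 fold change -1.86 ± 0.24, adjusted p = 0.000145). None of 33 fibroblast growth factor genes passed.

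Genes of the extracellular matrix passed in both directions, and most did not pass. Differences between the lists were not tested. Of 44 collagen genes, 6 were higher and 2 lower, with Col6a1 at 20.6 ± 14.2 and 95.8 ± 53.9 CPM (log2 fold change 2.30 ± 0.41, adjusted p = 0.00295) and Col9a3 at 4.68 ± 2.71 and 28.8 ± 37.2 CPM (log2 fold change 2.09 ± 0.40, adjusted p = 0.00424) among the higher ones. Col5a2 was lower, with 28.3 ± 13.8 and 7.87 ± 5.11 CPM (log2 fold change -1.88 ± 0.35, adjusted p = 0.00385). All 4 called of 17 small leucine-rich proteoglycan genes were higher, namely Dcn, Prelp, Kera and Chad. The sum of choroid plexus markers was higher in the posterior library of 10 of 10 mice, and that of fibroblast markers, which include Dcn, in 7 of 10, or 5 of 10 without Dcn. Their part in the result on matrix genes was not tested. Sparc, a matricellular protein gene of glia, had 738 ± 131 and 1286 ± 343 CPM and was higher in 10 of 10 mice (log2 fold change 0.77 ± 0.14, adjusted p = 0.00374), and the thrombospondin genes Thbs4 and Thbs3 were higher (7.30 ± 1.08 and 1.75 ± 0.34). In their list of 48 laminin, integrin, thrombospondin and nidogen genes, 5 were higher and 5 lower. Of 65 metalloprotease and inhibitor genes, 1 was higher and 5 were lower. Of 17 perineuronal net genes, 2 were lower and 1 higher. The higher one was the protease gene Adamts15 (1.37 ± 1.71 and 7.89 ± 5.71 CPM, log2 fold change 3.47 ± 0.91, adjusted p = 0.0361). The link protein gene Hapln4 and the core protein gene Ncan were lower (144 ± 54.2 and 46.1 ± 21.8 CPM, log2 fold change -1.72 ± 0.25, adjusted p = 0.000451, and -0.89 ± 0.16).

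None of 85 cytosolic ribosomal protein genes, 39 proteasome genes or 13 mitochondrially encoded genes passed, and 1 of 83 nuclear-encoded respiratory chain genes did, Cox8b, at 0.184 and 1.90 CPM. The ribosomal genes had a median of 0.20 and 77 of the 85 lay above 0, beside a median of 0.15 and 60.2% above 0 over all genes. Over protein-coding genes above 10 CPM, the median was -0.04 and 44.5% lay above 0. Of 25 genes of glycolysis and lactate transport, 4 passed (16.0%, beside 4.00% of all genes and 8.12% of protein-coding genes above 10 CPM). The lactate transporter genes Slc16a7 and Slc16a1, the phosphofructokinase gene Pfkl and Eno1 were lower, with log2 fold changes of -0.94 ± 0.19, -0.55 ± 0.13, -0.52 ± 0.14 and -0.46 ± 0.12. Reads of Eno1 can also fit its pseudogenes.

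Among called transporter genes, more were lower than higher, as among all called protein-coding genes above 10 CPM (596 lower and 182 higher). Of 63 tested carriers of amino acids and transmitters, 8 were lower and 3 higher, and of 96 carriers of sugars, monocarboxylates and ions, 14 were lower and 4 higher. Slc12a5, the neuronal potassium and chloride exporter gene that keeps GABA inhibitory, had 174 ± 44.9 and 118 ± 20.0 CPM (log2 fold change -0.54 ± 0.15, adjusted p = 0.0462), and the phosphate carrier gene Slc20a1 had 334 ± 143 and 153 ± 29.9 CPM (log2 fold change -1.03 ± 0.17, adjusted p = 0.00166). The GABA transporter gene Slc6a11, which is found in astrocytes, was higher (46.2 ± 19.6 and 95.04 ± 50.6 CPM, log2 fold change 0.93 ± 0.24, adjusted p = 0.0361). Of 24 genes of retinoic acid metabolism, the degrading enzyme gene Cyp26b1 and the retinol dehydrogenase gene Rdh11 were lower and 3 were higher, among them Rdh5 and Rbp7 (2.06 ± 0.47 and 4.90 ± 1.27). Of 44 genes of neurofilaments, tubulins and microtubule-associated proteins, 6 were lower, led by Basp1 (98.8 ± 13.1 and 62.4 ± 17.4 CPM, log2 fold change -0.70 ± 0.14, adjusted p = 0.00788), and Marcksl1 was higher (1.26 ± 0.25). Of 53 kinesin and cytoplasmic dynein genes, 3 were lower, Kif5c, Kif1a and Kif1b, which carry cargo along axons (-0.74 ± 0.15, -0.57 ± 0.13 and -0.50 ± 0.12), and 2 were higher, Kif27 and Kif9 (4.34 ± 0.77 and 1.02 ± 0.23).

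Of the 12 higher genes with the smallest p-values, Ttr, Cldn2, Calml4, Steap1 and 1500015O10Rik are genes of the choroid plexus and Krt18, Nek5 and Spag8 ependymal or ciliary genes, as described. The others were Trhr, Fibin, Tctex1d4 and Ptx4. Fibin, a secreted factor gene, was at 2.47 to 12.1 CPM (median 4.22) and 8.23 to 77.8 CPM (median 34.0) (log2 fold change 2.78 ± 0.26, adjusted p = 2.21e-05). Tctex1d4, a dynein light chain relative, and Ptx4, a pentraxin, had 0.0828 ± 0.262 and 4.29 ± 4.37 CPM (log2 fold change 7.55 ± 0.84, adjusted p = 4.65e-05) and 0.150 ± 0.423 and 7.00 ± 5.02 CPM (log2 fold change 7.48 ± 0.85, adjusted p = 4.82e-05). The 12 lower genes were Bmp3, Nrep, Npsr1, Lmo4, Igfbp6, Tspan5, Chgb, Blnk, Dpy19l1, Etl4, Vegfd and Gkn1. Nrep, a neuronal regeneration related gene, had 165 to 342 CPM (median 190.5) and 45.9 to 122 CPM (median 62.4) without overlap (log2 fold change -1.65 ± 0.15, adjusted p = 1.51e-05). Igfbp6, a binding protein gene of insulin-like growth factors, had 146 ± 50.2 and 44.0 ± 19.7 CPM, and the tetraspanin gene Tspan5 had 376 ± 129.5 and 150.2 ± 38.5 CPM (-1.79 ± 0.19 and -1.29 ± 0.14 on the log2 scale). The adaptor gene Blnk was at 18.0 to 54.2 CPM (median 34.0) and 1.94 to 14.1 CPM (median 7.94), again without overlap (log2 fold change -2.22 ± 0.24, adjusted p = 4.06e-05). Xist (log2 fold change 0.57 ± 0.19, adjusted p = 0.119) and Capn11 (log2 fold change 0.82 ± 0.64, adjusted p = 0.584) did not pass. Capn11 was at 0 to 17.7 CPM (median 0.355) and 0 to 16.9 CPM (median 1.07), with the high values in the same mice in both portions. Without a strand setting for the counting, reads of genes with exons on the opposite strand cannot be told apart, which concerns Abcb1a, Adcy2, Adora1, Bdnf, Cdh8, Cdh9, Chrm1, Chrm2, Col9a3, Cyp51, Dlgap1, Dnah11, Doc2b, Etl4, Foxo1, Grm2, Hmgcs1, Hydin, Kcnj13, Kcnma1, Kcnq5, Kif27, Ncald, Neurod1, Npr3, Npsr1, Nrn1, Otx2, Pcdh7, Pclo, Ppp1r1b, Prelp, Rtn4, Satb1, Scn9a, Slc16a7, Slc1a2, Sorcs1, Sox5, Syn1, Syn2, Tctex1d4, Thbs3, Trp73, Xist and Zmynd10 among the genes described.

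**Figure D5:**
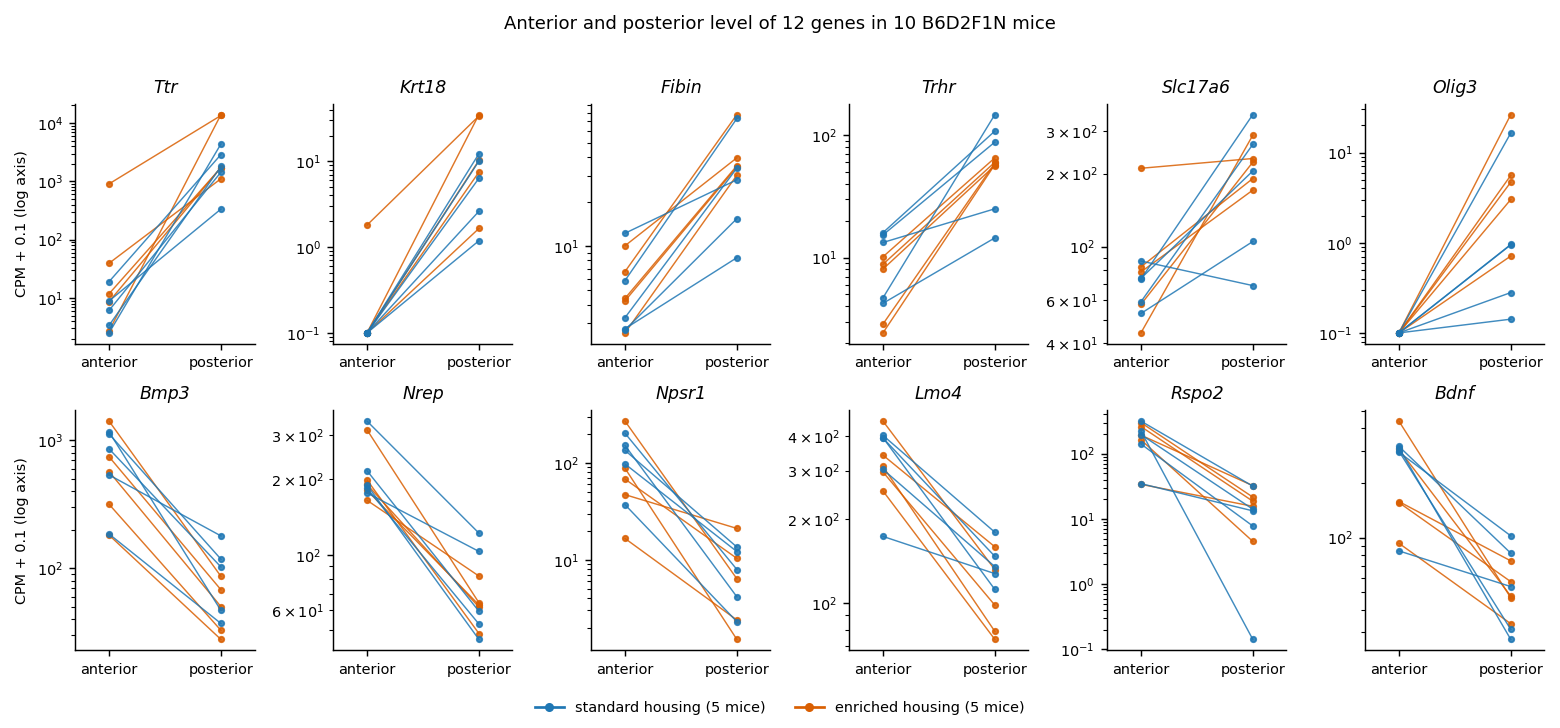
CPM + 0.1 (log axes) of 12 genes in the anterior and posterior library of each mouse, with 1 line per mouse, blue for standard and orange for enriched housing. The first 6 genes are higher in the posterior library in 9 or 10 of 10 mice and the last 6 lower in all 10.

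The question whether housing changed the difference between portions was addressed with an interaction term over the same 20 libraries. None of 27761 genes (0%) passed, with 1099 genes at an unadjusted p under 0.05 and a smallest adjusted p of 0.641 (edgeR). For Dcn, the log2 fold change was larger by 3.30 in the enriched mice (adjusted p = 0.947). With strain as the term, over the 32 libraries of both strains, none of 29437 genes (0%) passed and 871 had an unadjusted p under 0.05. The C57BL/6J mice numbered 6 with both portions, and a miss of the threshold does not show that the strains are alike. Bmp3, Npsr1, Sstr2 and Trhr had log2 fold changes of -2.98, -5.31, -2.24 and 3.86 in C57BL/6J mice, beside -3.19, -3.84, -2.02 and 3.01 in B6D2F1N mice. Rspo2 had -2.59 in C57BL/6J mice, and Krt18 and Ttr 5.54 and 6.45. For Lypd1, the value was 2.06 in C57BL/6J and 0.47 in B6D2F1N mice (adjusted p of the difference = 1).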

How the data were processed

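RNA of laser-captured cells of the basolateral amygdala was sequenced as single reads of 72 bases from polyA RNA. Per the labels and the study's methods, the authors trimmed reads with Trimmomatic 0.38 after FastQC 0.11.7, aligned them with HISAT2 2.1.0 to GRCm38, used SAMtools 1.8 for sorting and obtained counts for each gene from HTSeq 0.11.2. The annotation release and the strand setting are not given in the sources used here. The deposited values are raw counts per gene, of which rows that name no gene were left out of library sizes and tests. Of 52636 gene identifiers, 52489 were matched to GENCODE M21, which gave symbols and positions. Samples were grouped and paired by the labels, which tie each library to a mouse code.

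Genes with at least 10 counts over the 20 libraries were tested with edgeR 4.0.16 in R 4.3.3 (TMM scaling, quasi-likelihood F test, mouse as a block, Benjamini-Hochberg adjusted p of at most 0.05). The mouse numbers pair libraries of 1 animal. Deviations from the portion means were correlated across 16101 genes. Between the libraries of a mouse the median r was 0.035 (-0.061 to 0.215), against -0.001 between mice. In no mouse was the other library of the same animal the best match. In standard mouse 5 and enriched mouse 5, r was -0.052 and -0.061, below the median with other mice (0.021 and 0.004). On simulated counts of 26981 genes for the posterior against anterior comparison, 51% of genes changed by 1 on the log2 scale and 82% of those changed by 2 were recovered. Of the calls, 10.7% were unchanged genes, above the share of 0.05 that the threshold aims at. Changed genes were drawn only from those above 1 CPM on average, and no differences between mice were simulated. The recovery thus does not cover genes of lower mean level. Depth was 17121764 to 27352623 counts per library. Alternatives were DESeq2 1.42.0, other scalings, filters and designs, and leaving out mice. Leaving out 3 mice together, robust empirical Bayes, the sum without Dcn, the count of calls kept without each mouse and the Y-linked counts were chosen after seeing the data.

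Genes named were the 12 higher and 12 lower ones with the smallest p and 1 direction in at least 9 of 10 mice, up to 4 higher and 4 lower genes per list, genes named by the study and defining markers. Any other named gene was chosen after its values were seen. Some genes are counted in the lists but not reported here by name. The members and lists were chosen with earlier results of these data known.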

Additional observations from a re-analysis of the deposited data

Results flagged for a closer look

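Of 65 groups of 10 values examined, 6 held a mouse that stood apart from the other 9, and chance gives about 1 in 20. The anterior library of enriched mouse 1 was far above the others in the log2 summed CPM of choroid plexus markers, at 10.02, and of ependymal markers, at 5.747. The anterior library of standard mouse 3 was high in medial amygdala markers, with a log2 summed CPM of 6.629. Enriched mouse 3 had the widest posterior minus anterior difference on the log2 (CPM + 1) scale for 1500015O10Rik, at 7.997, and for Steap1, at 5.216. Xist was at 0 CPM in the anterior library of standard mouse 1, below the other 9 mice, and it was also at 0 in the posterior library of that mouse, which had no counts on 4 Y-linked genes either.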

How the results depend on the processing

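The 12 higher and 12 lower genes with the smallest p kept their direction and stayed past the threshold in all 21 alternative settings. This was counted as 504 of 504 results, and no result reversed its direction. These genes had been chosen from the same libraries by their small p and a direction shared by nearly all mice. The count thus follows largely from that choice and does not show how stable the other calls are. Among all genes past the threshold, 41.3% did not pass without at least 1 mouse. The number of genes called depended more on the test and on the mice. The likelihood ratio test of DESeq2 called 1994 genes (924 higher and 1070 lower). With only the 5 standard mice, 198 genes passed (83 higher and 115 lower), and with only the 5 enriched mice 521 (193 higher and 328 lower). When 1 mouse at a time was left out, 770 to 1220 genes passed, 328 to 523 higher and 442 to 697 lower. Without enriched mice 1 and 3 and standard mouse 3, 264 genes were higher. Without the mouse as a block, 553 genes were higher and 619 lower, and the pairing thus moved neither count by over 1.5 times. Recovery by expression level was not tested, and genes at or near 0 counts in 1 portion, such as Olig3 and Ucn3, have no precise fold change at this depth. Of the genes that passed and are named in the report, the following did not pass without at least 1 mouse: Abcb1a, Adamts15, Adora1, Aif1, Arc, Bmp15, Cacna1i, Cacna2d1, Cacng6, Calb2, Calcr, Cartpt, Cck, Cdh10, Cdh26, Chad, Chrm1, Cyp51, Doc2b, Ebp, Ecel1, Eno1, Galr1, Gria3, Gria4, Grin2a, Homer1, Hrh1, Iqsec3, Kif1a, Kif1b, Msmo1, Neurod6, Npr3, Nptx1, Npy2r, Npy5r, Nrn1, Pax6, Pcdhb1, Pfkl, Rbp7, Rdh11, Rgs5, Slc12a5, Slc6a11, Sox9, Srebf2, Tac1, Tenm2, Trp73, Vamp8, Vip and Vtn. Leaving out 1 mouse moved the fold by over 1.5 times in 1500015O10Rik, Aqp1, Bmp15, Calcr, Ccdc153, Cdh26, Cdh3, Cfap161, Chad, Cldn2, Dnah11, Dnah12, Folr1, Galr1, Gkn1, Kcne2, Kera, Krt18, Nek5, Olig3, Otx2, Pcdhb1, Ptx4, Rbp7, Slc4a5, Sstr5, Tctex1d4, Thbs4, Tmem212, Trp73 and Ucn3, all of them with few or no counts in 1 portion in most mice.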

Other observations

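Immune lists had shares of calls near that of all genes. Of 119 tested chemokine, interleukin and receptor genes, 5 were lower and none higher, and Il34, which encodes a ligand of the microglial colony-stimulating factor receptor, had 133 ± 42.9 and 92.3 ± 41.6 CPM (log2 fold change -0.58 ± 0.16, adjusted p = 0.0465). The atypical chemokine receptor gene Ackr1 and the death receptor family gene Tnfrsf21 were lower as well (-0.91 ± 0.20 and -0.67 ± 0.16). Of 63 complement and interferon-induced genes, Ifi27 was higher (27.5 ± 11.8 and 54.2 ± 20.1 CPM, log2 fold change 0.99 ± 0.23, adjusted p = 0.0158), as was C4b, whose reads can be shared with its near-identical neighbour.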
